A study of Caenorhabditis elegans with 2 samples.

Results

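The 200 strongest binding regions of HLH-30 were selected on the authors' signal value, the score of strength deposited for each peak, with ties to be settled by chromosome and start; no tie occurred. They were 200 of the 7168 peaks in the authors' reproducible list on the build ce11, or 2.79% of the peaks with 13.9% of the summed signal value. Chromatin immunoprecipitation followed by sequencing was done on whole hermaphrodites of Caenorhabditis elegans at the L4 larval stage. Strain OP433 has the genotype unc-119(tm4063) III; wgIs433, so all worms carried the unc-119 mutation and an integrated transgene encoding HLH-30 with GFP and FLAG at its C-terminus. Per the description in the labels, an antibody against GFP pulled down the chromatin, which had been sonicated. There were 2 biological replicates in 1 group, with no second condition, and all worms came from a transgenic line in which the tagged protein is made from the transgene. No peak of the 200 lay in a promoter of hlh-30 or unc-119 or had either as its nearest gene. Because whole worms were used, a weak peak in many cells and a strong peak in few cells cannot be told apart.

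HLH-30, the worm relative of mammalian TFEB, is a transcription factor with a helix-loop-helix and a leucine zipper. Proteins of this family bind DNA as dimers at E-boxes, short palindrome-like sites of which CACGTG is the classical form, and TFEB is known as a regulator of autophagy and lysosome genes. In worms, HLH-30 is known for roles in starvation, longevity and defence against infection, in which autophagy breaks down cell contents within membrane vesicles that fuse with lysosomes.

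The sequences under several of the strongest peaks show what these regions look like. Each line gives the plus strand of ce11 (WBcel235, NCBI RefSeq sequence), at the summit base and 50 bp on either side of it, with the nearest gene. Capitals mark an E-box, CACGTG or CACATG on either strand, and the hexamer CGTCTC on either strand. These windows were chosen because they cover the strongest peak at each of the 5 autophagy genes that rank highest, all 4 peaks nearest to AMP-activated protein kinase genes, a peak with both E-box forms, a peak with repeated copies of CGTCTC, and peaks at translation genes that lack every marked site.
epg-9, rank 1, chrIV:2602115-2602215: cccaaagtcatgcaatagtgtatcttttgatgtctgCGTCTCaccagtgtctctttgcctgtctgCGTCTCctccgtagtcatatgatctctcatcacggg
lgg-2, rank 6, chrIV:10936134-10936234: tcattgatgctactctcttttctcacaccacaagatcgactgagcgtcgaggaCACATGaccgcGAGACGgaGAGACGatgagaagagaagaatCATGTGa
lgg-1, rank 9, chrII:6348552-6348652: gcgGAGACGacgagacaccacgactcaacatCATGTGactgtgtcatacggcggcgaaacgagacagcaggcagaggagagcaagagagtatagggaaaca
epg-7, rank 18, chrX:7334498-7334598: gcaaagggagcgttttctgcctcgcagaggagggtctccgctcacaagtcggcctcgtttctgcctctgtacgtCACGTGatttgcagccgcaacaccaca
atg-9, rank 53, chrV:349184-349284: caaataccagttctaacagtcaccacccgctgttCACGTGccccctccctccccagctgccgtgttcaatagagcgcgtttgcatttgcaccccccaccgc
aakg-3, rank 10, chrX:2971603-2971703: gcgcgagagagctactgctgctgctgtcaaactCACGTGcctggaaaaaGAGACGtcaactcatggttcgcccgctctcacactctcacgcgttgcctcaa
aakg-1, rank 29, chrIII:12583623-12583723: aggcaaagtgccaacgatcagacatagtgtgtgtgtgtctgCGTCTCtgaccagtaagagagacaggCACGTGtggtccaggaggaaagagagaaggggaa
aakg-1, rank 51, chrIII:12568400-12568500: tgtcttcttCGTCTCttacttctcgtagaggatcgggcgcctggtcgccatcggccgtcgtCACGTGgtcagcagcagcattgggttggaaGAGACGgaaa
aak-2, rank 46, chrX:16797006-16797106: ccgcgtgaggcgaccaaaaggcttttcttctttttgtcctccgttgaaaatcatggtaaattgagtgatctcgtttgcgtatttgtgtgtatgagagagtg
mdl-1, rank 63, chrX:6743996-6744096: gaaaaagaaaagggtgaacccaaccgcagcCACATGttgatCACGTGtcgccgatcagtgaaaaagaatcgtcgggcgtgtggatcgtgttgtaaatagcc
B0546.4, rank 7, chrIV:3384705-3384805: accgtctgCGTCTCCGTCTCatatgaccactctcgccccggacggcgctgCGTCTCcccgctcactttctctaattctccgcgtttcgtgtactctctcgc
iff-2, rank 3, chrII:8561380-8561480: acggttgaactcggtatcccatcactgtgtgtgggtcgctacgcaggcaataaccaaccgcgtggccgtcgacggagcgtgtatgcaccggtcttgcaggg
rpl-15, rank 20, chrIV:654874-654974: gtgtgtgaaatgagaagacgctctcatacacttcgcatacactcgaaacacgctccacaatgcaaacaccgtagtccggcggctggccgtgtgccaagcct

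The peak ranked first, in an intron of epg-9, held CGTCTC at 2 places and no E-box, whereas the lgg-2 window held CACATG at 2 places and CGTCTC at 2 places. The pair of windows nearest to aakg-1 and the window nearest to aakg-3 each combined CACGTG with CGTCTC, whereas the aak-2 window held neither kind of site. The windows at iff-2 and rpl-15, which encode a translation factor and a ribosomal protein, also held neither.

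Within the 200, the highest signal value was 1388 and the lowest 305.6, around a median of 406 and quartiles of 349 and 518. The selection ended inside a smooth run of values. Ranks 198, 199 and 200, at M01H9.3, frm-10 and R11G1.2, had values of 308.6, 308.5 and 305.6. Ranks 201, 202 and 203, nearest to atgl-1, flh-2 and sma-9, had 305.3, 305.1 and 304.1. All values in this paragraph are the authors' own and chose the members, so they are a description.

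**Figure D1:**
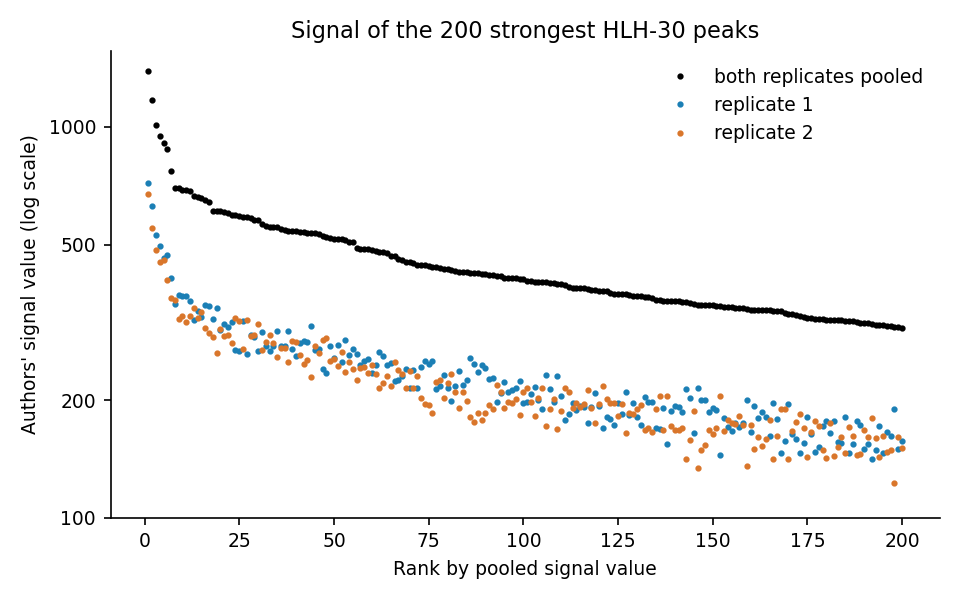
The authors' signal value (vertical axis, log scale) is plotted against rank by pooled signal value for the 200 strongest peaks, with black points for both replicates pooled, blue for replicate 1 and orange for replicate 2. The pooled value falls from 1388 to 305.6, and the replicate values lie together below it. Replicate 1 is the higher at ranks 1 to 7, and the replicates cross each other from rank 8 onward.

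Every one of the 200 regions overlapped an entry in each replicate's own list by at least 1 bp. Because the pooled value holds both replicates, this agreement describes the calls and does not test them. In all, 184 of the 200 were among the 200 strongest entries of replicate 1, 181 among those of replicate 2, 165 among both, and 0 were outside both. The lowest position of any of them was rank 257 in replicate 1, at ZK899.6, and rank 342 in replicate 2, at M01H9.3. All 35 regions that missed one of the replicates' strongest 200 stood at pooled rank 138 or lower in the order. The strongest 137 were thus in both.

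The replicate values were close in level. The SD of the replicate values (n = 2) was at the median 8.03% of their mean over the 200, and at most 33%. The ratio of replicate 1 to replicate 2 had a median of 1.06, against 1.00 over the 6918 other peaks with a value in both lists, and 122 of the 200 were higher in replicate 1. The ratio went beyond 1.5 in 3 regions. These were at ndub-8 (215 in replicate 1 and 134 in replicate 2), M01H9.3 (190 and 123) and unk-1 (214 and 142). In the other direction the lowest ratios were 0.707 at T28F4.5, 0.753 at pqn-70 and 0.773 at pkg-2. Spearman's rho between the replicates was 0.78 over the 200 regions and 0.72 over the others, as a description of values that share their calls. The summits of the replicates lay a median of 12 bp apart in the 200 and 26 bp apart in the others. They lay within 20 bp of each other in 75% of the 200 and in 41.7% of the others. Ranks 201 to 400 were close to the 200, with summits a median of 13.5 bp apart. Their median SD was 8.13% of the mean and their median ratio was 1.04.

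**Figure D2:**
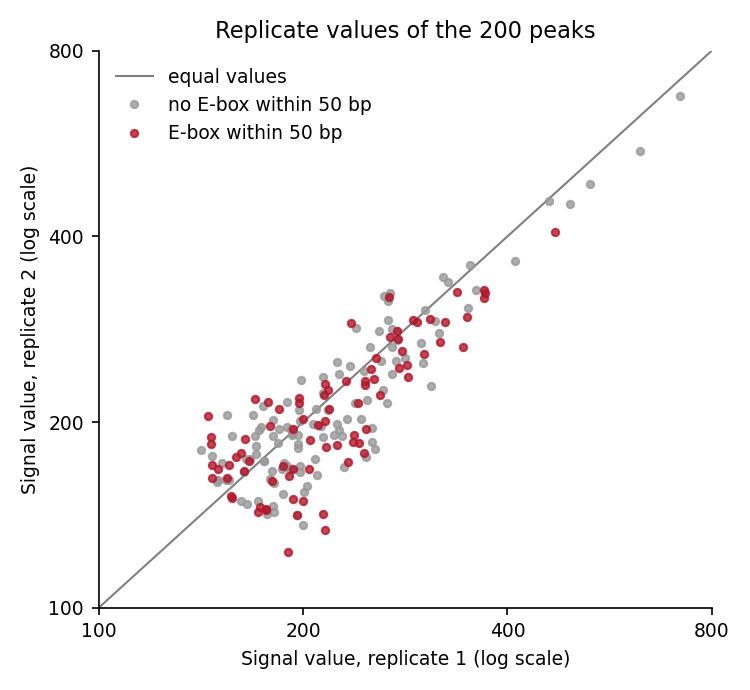
Each point is a region of the 200, with its signal value in replicate 1 on the horizontal axis and in replicate 2 on the vertical axis, both on log scales, and the grey line marks equal values. Red points have an E-box within 50 bp of the summit and grey points have none, and the 5 highest points are grey, with red and grey points mixed along the line below them.

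Regions at autophagy genes were 3 of the 10 strongest. Of 31 autophagy genes matched by name, 9 were nearest to one of the 200 summits and 6 of these had a summit in a promoter window, defined as the 1000 bp before and the 200 bp after an annotated 5′ end. Over all 19973 protein-coding genes, 0.776% had a summit of the 200 in a promoter window and 0.911% were nearest to one. The list and these regions were chosen with earlier results known, so the count is a description. Any of the 7168 peaks lay in a promoter window of 21 of the 31 autophagy genes (67.7%), where the share over all protein-coding genes was 20.1%. This was not particular to autophagy genes. Over the 28 gene lists examined, the share ran from 1.46% of chemoreceptor genes to 86.9% of ribosomal protein genes. It was 72.7% of respiratory chain genes.

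The kinase complex that starts autophagy was represented by 3 genes. epg-9 encodes the counterpart of ATG101, a subunit of that complex, and its intron carried the strongest of all 7168 peaks, at chrIV:2601898-2602418 and 1024 bp downstream of the nearest 5′ end. The signal there reached 719 for replicate 1 and 675 for replicate 2, a mean of 697 ± 31.5 (SD, n = 2). A separate region 1304 bp upstream of the same gene had 246 and 242. epg-7, whose product is a scaffold protein related to FIP200, had a region 166 bp upstream of its 5′ end with 323 in replicate 1 and 290 in replicate 2. unc-51, the kinase of the complex and the counterpart of ULK1, was nearest to a region 1421 bp upstream with 171 and 183. The epg-9 intron was the highest region in both replicates, and the unc-51 region was among the lower ones, at rank 157.

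Both worm members of the ATG8 family, small proteins that are joined to lipid on the growing vesicle, had regions among the 25 strongest. lgg-2, the counterpart of LC3, had a region 281 bp upstream of a 5′ end with 470 in replicate 1 and 407 in replicate 2, and another with 308 and 294, their summits 649 bp apart. lgg-1, the counterpart of GABARAP, had a region 883 bp upstream of its 5′ end with 371 and 323. In all these regions replicate 1 was the higher of the pair.

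Genes for membrane supply and lipid recognition followed. atg-9, a transmembrane protein of autophagy vesicles, had a region 151 bp upstream with 285 in replicate 1 and 236 in replicate 2. epg-6 and atg-18 encode proteins of the WIPI family, which bind phosphatidylinositol 3-phosphate. The epg-6 region had 271 and 240, and the atg-18 region had 175 and 173. dct-1, the worm counterpart of the mitophagy receptor BNIP3, was nearest to a region 2618 bp upstream, in a noncoding exon, with 247 and 230. Of the 11 regions at autophagy genes, 6 held an E-box within 50 bp of the summit, 7 held CGTCTC, 4 held both and 2 held neither.

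A group of 26 genes for TOR and AMP-activated protein kinase signalling, which senses nutrients and energy, had 3 genes (11.5%) nearest to one of the 200 summits and 0 with a summit in a promoter window, beside 0.911% and 0.776% over all protein-coding genes. All 3 encode subunits of the AMP-activated kinase. aakg-3, a regulatory gamma subunit, was nearest to a region 4795 bp away with 370 in replicate 1 and 328 in replicate 2. aakg-1, another gamma subunit, was nearest to a region with 291 and 293, 8272 bp from its 5′ end, and to a region with 277 and 244. The former lay farther from any protein-coding 5′ end than any other of the 200. aak-2, a catalytic subunit, carried a region in an intron with 270 and 265. Of these 4 regions, 3 held both an E-box and CGTCTC, and the aak-2 region held neither. Nearness to a 5′ end was the only basis for giving a distant region to a gene.

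The 200 held 1 region in a promoter window of a lysosomal gene. Of 63 genes for lysosomal enzymes and membrane proteins, 1 (1.59%) had a summit of the 200 in a promoter window, near the 0.776% over all protein-coding genes, and of 21 vacuolar ATPase genes, 0 had. Shares this near to that of all genes are not a result about either list. The lysosomal gene was spin-4, of the spinster family of lysosomal transporters, whose promoter window it shared with rsp-3, with 198 in replicate 1 and 170 in replicate 2. Any of the 7168 peaks lay in a promoter window of 27 of the 63 lysosomal genes (42.9%) and of 10 of the 21 vacuolar ATPase genes (47.6%), where the share over all protein-coding genes was 20.1%. Nearly all of these genes with peaks had theirs outside the 200. Lists of other functions had higher shares with any peak, such as 54.5% of proteasome genes and 65.4% of nucleoporin genes. Others had lower ones, such as 28.1% of transfer RNA synthetase genes.

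Genes of protein synthesis carried 9 of the 200 regions. Of 84 ribosomal protein genes, 6 (7.14%) had a summit of the 200 in a promoter window, where the share over all protein-coding genes was 0.776%: rpl-3, rpl-15, rpl-20, rps-1, rps-12 and rps-19. The highest was rpl-15, with 303 in replicate 1 and 303 in replicate 2, and the lowest was rpl-20, with 181 and 143. Of 42 translation factor genes, 4 (9.52%) had such a summit. iff-2, which encodes the translation factor eIF5A, had a region 63 bp upstream of its 5′ end with 529 and 486, the strongest after epg-9 and tasp-1. eef-1A.1 had 267 and 314 and eef-1A.2 had 193 and 192, both being genes for the elongation factor eEF1A. ifet-1, related to the eIF4E transporter, shared a region with rps-1 that had 263 and 226.

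The 9 regions at ribosomal protein and translation factor genes all lay in promoter windows, and 8 of them held neither an E-box nor CGTCTC. The exception was the eef-1A.2 region, which held CGTCTC. The 6 at ribosomal protein genes were 244 to 307 bp wide, and the median width of all 200 was 371.5 bp. The narrowest region of the 200, 244 bp, lay between ska-3 and rps-12. Some of these windows were shared with a neighbouring gene, so a region could not be given to either gene alone: iff-2 shared with F54C9.14, rpl-15 with K11H12.8, rpl-20 with Y17G9B.5, rps-19 with hsr-9, and eef-1A.1 with rfc-4.

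Several families of transcription factor genes were represented. Of 40 basic helix-loop-helix and partner genes, hlh-11, mdl-1 and hif-1 were nearest to summits, 3 genes or 7.50% beside 0.911% over all protein-coding genes. Of these only hlh-11 had a summit in its promoter window, 2.5% of the list beside 0.776%. A share that rests on 1 gene is not a result about the list. mdl-1 encodes a relative of mammalian MAD proteins, and of the 2 regions nearest to it the stronger, at chrX:6743738-6744262, had 259 in replicate 1 and 222 in replicate 2. That region was 1 of 3 among the 200 with both CACGTG and CACATG. hlh-11 had 170 in replicate 1 and 218 in replicate 2. Both nearest-gene regions of mdl-1 and the hlh-11 region held an E-box. hif-1, the hypoxia-inducible factor, was nearest to a region with 233 and 202, and egl-9, the prolyl hydroxylase that marks that factor for degradation, to a region with 193 and 195.

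Of 273 nuclear hormone receptor genes, 3 (1.10%) were nearest to a summit, close to the 0.911% of all protein-coding genes: nhr-19 in an intron with 259 and 281, nhr-35 in a promoter with 197 and 215, and nhr-20 with 208 and 174. The heterochronic regulator lin-14, which times larval development, carried a region in an intron with 255 in replicate 1 and 235 in replicate 2. It was 1 of 10 heterochronic genes matched, and a single gene is not a result about that list. fkh-7, a forkhead gene, was nearest to 3 of the 200, more than any other gene, with pooled values from 340.4 to 535. The homeobox gene ceh-38 had 241 and 215. It was the 1 gene of 87 in its list with a summit of the 200 in a promoter window. That share of 1.15% is near the 0.776% over all protein-coding genes.

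Of 46 stress and longevity genes, 2 (4.35%) were nearest to a summit, the hif-1 and egl-9 described above, beside 0.911% over all protein-coding genes. The mitochondrial heat-shock protein gene hsp-6, also of that list, had a summit in its promoter window, 2.17% of the list beside 0.776%. That share rests on 1 gene and is not a result about the list. The hsp-6 region had 198 in replicate 1 and 201 in replicate 2 and was shared with C37H5.5. The remaining lists had counts of 0 or 1. zip-2, a bZIP factor of the infection response and 1 of 39 immune genes (2.56%), had 162 and 178. cox-5A, a subunit of cytochrome c oxidase and 1 of 44 respiratory chain genes (2.27%), had 196 and 191. Both had the summit in a promoter window, beside 0.776% over all protein-coding genes. A single gene is not a result about its list. Of 1298 chemoreceptor genes, only srh-2 had a summit of the 200 in a promoter window, 0.0770% beside 0.776% over all protein-coding genes, with 175 and 173. Of the 28 lists, 15 had no gene with a summit of the 200 in a promoter or nearest to it. They were the vacuolar ATPase, lipid metabolism, transfer RNA synthetases, the proteasome, nucleoporins, collagens, C-type lectins, neuropeptides, histones, and markers of intestine, muscle, pharynx, neurons, epidermis and germline. At the shares over all protein-coding genes, 0.776% and 0.911%, a count of 0 in lists of this size is not a result about them.

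Several other genes at the strongest regions were noticed only after their values were seen. Small GTPases of vesicle traffic were among them. unc-108, the worm RAB2, had 2 regions in its promoter windows, with 267 and 275 in replicate 1 and 293 and 281 in replicate 2. rab-18 had 327 and 337, in a region shared with kbp-4 and par-2, and rab-7, the GTPase of late endosomes, had 274 and 252, in a region shared with W03C9.5 and mex-1. mtm-3, a myotubularin phosphatase that acts on phosphatidylinositol 3-phosphate, was nearest to a region with 370 and 318. Of the enzymes that add and remove O-linked N-acetylglucosamine, ogt-1 was nearest to a region 2013 bp upstream with 189 and 197. oga-1 had a region in its promoter window with 240 and 284. Genes of ubiquitin and of its conjugating enzymes with a summit in a promoter window were ubq-1, with 196 and 142, ubc-3, ubc-7 and let-70. The let-70 region was shared with klc-1, whose 5′ end was nearer. ubc-8 was only the nearest gene to a region 1469 bp upstream of it. No list was made of these genes, so nothing was counted against the rest of the genome.

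By position, 123 of the 200 summits lay in a promoter window, 43 between genes, 26 in introns, 7 in noncoding exons and 1 in a 5′ UTR. None lay in a coding exon or a 3′ UTR. A count of 0 in 200 has a 95% Wilson upper limit of 1.88%. The promoter share was 61.5%, against 51% of the 6968 other peaks, a difference of 10.5 percentage points with a 95% Newcombe interval of 3.47 to 17.04. Against the 57% of ranks 201 to 400 the difference was 4.50 percentage points (-5.09 to 13.98). Among peaks with a GC content of 45% to 55% around the summit the difference was 1.79 percentage points (-7.90 to 11.1), and among peaks not exactly 350 bp wide it was 3.71 percentage points (-3.53 to 10.5). Both restrictions were added after seeing the data. A width of exactly 350 bp went with low rank, being held by 2% of ranks 1001 to 1200 and 94% of ranks 3001 to 3200. The width restriction therefore also left out mostly weaker peaks. Median GC content around the summit was 50.5% in the 200 and 43.6% in the others, and its part in the promoter difference was otherwise not tested.

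Coding exons held 0 of the 200 summits and 148 of the other 6968, a difference of -2.12 percentage points (-2.49 to -0.214). Ranks 201 to 400 also held 0. The interval against all others reached past 0 among the 100 strongest peaks and in the GC-restricted and width-restricted sets. The intergenic share was 21.5% against 25.5%, a difference of -4.05 percentage points (-9.28 to 2.24). The intron share was 13% against 17.3%, a difference of -4.25 percentage points (-8.32 to 1.19). Neither interval excluded 0. Peaks share chromatin and libraries and are not replicates, so these intervals cover counting error only.

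**Figure D3:**
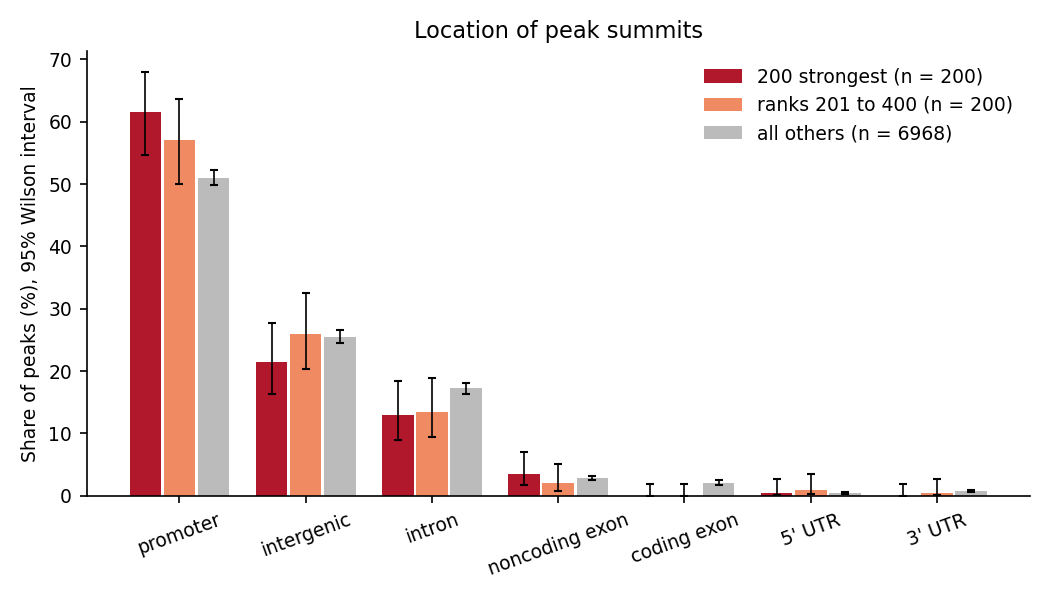
Bars give the share of peak summits in each location class for the 200 strongest peaks, the next 200 and all 6968 others, with 95% Wilson intervals. The 200 strongest stand at 61.5% in promoter windows, the next 200 at 57% and the others at 51%, and the intervals of the first 2 sets overlap.

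Of the 123 promoter regions, 89 lay in windows of 1 gene, 32 in windows of 2 genes and 2 in windows of 3, so that 155 protein-coding genes had a summit of the 200 in a promoter window. Windows of genes on opposite strands held 16.5% of the 200 and 10.2% of the others, a difference of 6.30 percentage points (1.73 to 12.1). Ranks 201 to 400 stood at 13.5%, with an interval of the difference that included 0 (-4.05 to 10.05). The median distance from summit to nearest protein-coding 5′ end was 501 bp in the 200 and 734 bp in the others. At the far end, 12 of the 200 lay over 5000 bp from any such 5′ end. The farthest were the aakg-1 region above, a region in an intron of abts-4 whose nearest 5′ end, that of mdl-1, was 7976 bp away, and a region 7928 bp from W05H9.4. All 3 held an E-box.

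Peaks often lay close together. Another summit lay within 2000 bp of 60% of them and of 46.9% of the others, a difference of 13.1 percentage points (6.13 to 19.8). The share was 58% in ranks 201 to 400, a difference of 2.00 percentage points (-7.58 to 11.5). Some of these neighbouring summits lay inside the same region. In the ipla-6 and mif-4 region, 538 bp wide, another summit lay 201 bp from its own. Such cases were not counted apart. Among the 200 themselves, 10 pairs of neighbours lay within 2000 bp of each other and 17 within 5000 bp. In all, 35 of the 200 shared their nearest gene with another of the 200, at 17 genes, and no interval of the 200 overlapped another. Besides fkh-7, epg-9, lgg-2, aakg-1, mdl-1 and unc-108, these genes included gei-4, mnk-1, unk-1, ret-1, fce-2 and mstr-1.

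A 5′ end of a noncoding gene lay within 300 bp of 43 of the 200 summits, or 21.5%, against 17.6% of the others, a difference of 3.95 percentage points (-1.26 to 10.2). The 43 comprised 34 annotated only as noncoding RNA, 6 small nucleolar RNA genes and 3 microRNA genes. Only the nearest noncoding 5′ end of each summit was typed, here and below, so a farther one within 300 bp was not counted. Small nucleolar RNA genes were thus near 3% of the 200 and 1.32% of the others, a difference of 1.68 percentage points (0.0348 to 5.08). MicroRNA genes were near 1.5% and 0.359%, a difference of 1.14 percentage points (0.138 to 3.96). Against ranks 201 to 400, at 1.00% and 0%, both intervals included 0 (-1.04 to 5.47 and -0.628 to 4.32). The microRNA genes were mir-5549 at the eef-1A.1 and rfc-4 promoter, mir-5595 near nurf-1 and mir-2218a near maea-1. None of the 200 had a transfer RNA gene as its nearest noncoding gene within 300 bp, and 3.59% of the others had one, a difference of -3.59 percentage points (-4.05 to -1.66). In ranks 201 to 400 the share was 1.00%, and the interval of that difference included 0 (-3.57 to 1.02).

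The 200 were found on all 6 nuclear chromosomes. X held 44, III held 39, V held 37, I held 29, IV held 27 and II held 24. The density was highest on III, with 2.83 per Mb, followed by X with 2.48, and lowest on IV, with 1.54. The X share was 22% of the 200 and 23.6% of the others, a difference of -1.59 percentage points (-6.87 to 4.72), and the interval for each of the other chromosomes also included 0. The strongest region on each chromosome was at or nearest to imb-3 on I, iff-2 on II, tasp-1 on III, epg-9 on IV, ztf-7 on V and C30E1.4 on X.

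The 200 differed from the rest in width, which comes from the same calls as the signal value and is given as a description. Their median width was 371.5 bp, from 244 to 705 bp. Only 1 of the 200 was exactly 350 bp wide, a width shared by 71.3% of the others. Among ranks 201 to 400, none of which was 350 bp wide, the median was 304.5 bp. The widest were at F58D5.5 with 705 bp, C30E1.4 with 693 bp and zfp-1 with 688 bp, and the narrowest besides ska-3 were at taf-10 with 246 bp and rbg-1 with 252 bp. Spearman's rho between signal value and width within the 200 was 0.27.

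E-boxes were counted within 50 bp of each summit, as CACGTG or CACATG on either strand. They were present in 41.5% of the 200 and in 24.8% of the others, a difference of 16.7 percentage points (10.02 to 23.7). Ranks 201 to 400 held one in 38.5%, a difference of 3 percentage points with an interval that included 0 (-6.55 to 12.5). CACGTG was in 23.5% against 10.7%, a difference of 12.8 percentage points (7.41 to 19.2). CACATG was in 19.5% against 15.04%, a difference of 4.46 percentage points (-0.509 to 10.6). In ranks 201 to 400 the shares were 19% for CACGTG and 20% for CACATG. The intervals of those differences included 0 (-3.53 to 12.5 and -8.31 to 7.32). As a background, 5.46% of windows of the same length centred 150 bp upstream of protein-coding 5′ ends and 4.75% of windows tiling the genome held either form. In windows centred 500 bp to the left of the summits, 6% of the 200 held one.

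The E-box difference from all others varied in size among subsets. Among peaks not exactly 350 bp wide, a set without most of the weaker peaks, it was 9.51 percentage points (2.58 to 16.7). When sites were counted only within 25 bp of the summits it was 9.91 percentage points (4.45 to 16.3). Among peaks in promoter windows it was 16.5 percentage points (8.31 to 25.4), and among peaks with a GC content of 45% to 55% it was 23.9 percentage points (14.7 to 33.5). Within the 200, E-boxes were in 37.4% of the 123 promoter regions, 44.2% of the 43 intergenic regions and 13 of the 26 intron regions. On X, 24 of 44 regions held an E-box, and on III, 11 of 39 did. Of the 47 regions with CACGTG, 32 held it within TCACGTG on either strand, or 68.1% against 60.7% in the others. The other E-box forms differ in the central pair of bases. Of these, CAGCTG was in 10% of the 200 against 3.77%, a difference of 6.23 percentage points (2.76 to 11.2). For CAAGTG the shares were 12% and 6.90%, a difference of 5.10 percentage points (1.24 to 10.4). Against all others the intervals of the remaining forms included 0. Their differences were negative for CAAATG (-1.2), CAACTG (-2.2), CAATTG (-1.89) and CACCTG (-1.42), and positive for CAGATG (2.32) and CATATG (0.972). Against ranks 201 to 400 the intervals for CAGCTG and CAAGTG included 0, whereas that for CAGATG was 0.463 to 9.88.

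CGTCTC was present in 38% of the 200, in 22% of ranks 201 to 400 and in 14.9% of all others. Of the 2080 hexamers, with reverse complements joined, it had the largest difference in share between the 200 and the others, 23.1 percentage points. It was chosen from that scan, so it has no test. It was in 4.05% of the promoter windows and 2.72% of the genome tiles described above. Of the 76 regions with CGTCTC, 42 held it within the longer CTGCGTCTC, which was in 21% of the 200 and 7.20% of the others. Either an E-box or CGTCTC was in 129 of the 200, both were in 30, and neither was in 71. Of the 10 strongest, 6 held CGTCTC and 3 held an E-box, all 3 of which also held CGTCTC.

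Other hexamers of the same scan are given as a description. GAGAGA, which can share bases with the reverse complement of CGTCTC, was in 38.5% of the 200 and 23.7% of the others. In ranks 201 to 400 it was in 33.5%. GATAAG, chosen like the rest after the values were seen, was in 3 of the 200, or 1.5%, against 10.1%. Its share in ranks 201 to 400 was 5%. The hexamer with the largest deficit was AAAAAT, in 7.5% against 23.9%. The part of GC content in these differences was examined only by bands, and not at all for AAAAAT. Among the others, GAGAGA was in 18.9% of peaks with a GC content under 45%. In the bands above, it was in 29.6%, 30.1% and 29.5%. In the same bands of the 200 it was in 34.2%, 39.6%, 41.4% and 37.5%. GATAAG was in 7.89% of the 200 in the lowest band and in 0% in each band above. Among the others it was in 14.4%, 6.07%, 3.82% and 2.47%. Where GC content was 55% or over, CGTCTC was in 42.9% of 56 regions of the 200 and in 26.1% of 566 others, and where it was under 45%, in 26.3% of 38 against 9.53% of 3883.

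**Figure D4:**
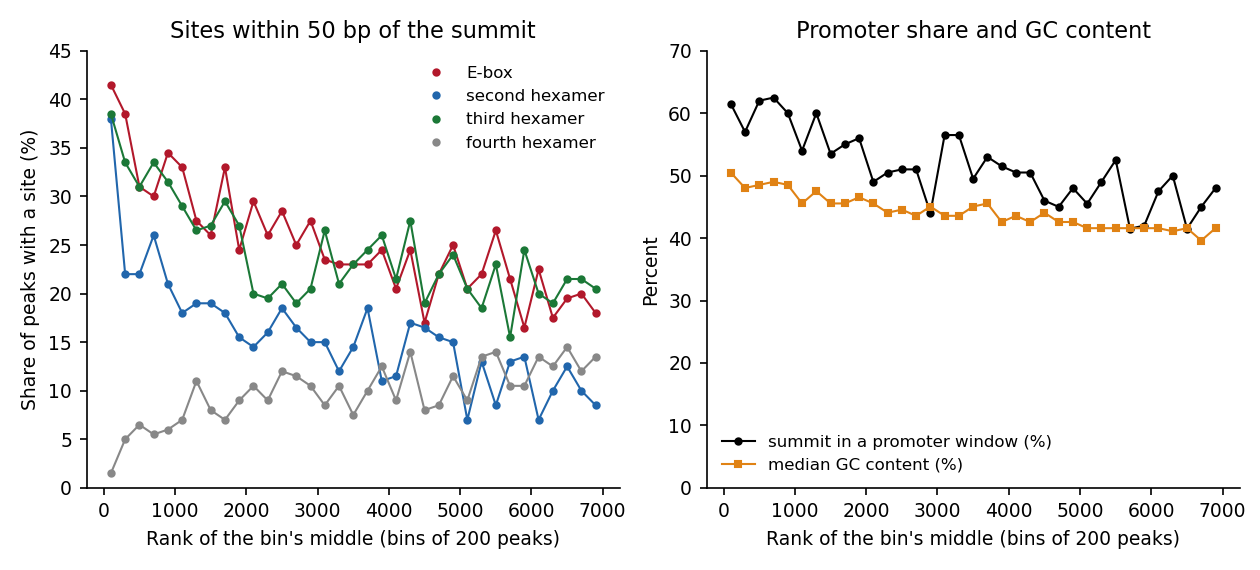
Left, the share of peaks with a site within 50 bp of the summit (vertical axis, percent) against rank for successive bins of 200 peaks: red for the E-box, blue for CGTCTC, green for GAGAGA and grey for GATAAG. Right, the share of summits in a promoter window (black) and the median GC content (orange). The first bin, at 41.5% for the E-box and 38% for CGTCTC, is above each of the other 34 full bins. For promoters 2 bins are higher. The blue, green and grey lines show hexamers chosen after the values were seen and are a description.

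Against 34 other bins of 200 peaks taken in rank order, the 200 had the highest share with an E-box, 41.5% against 16.5% to 38.5%, and the highest with CGTCTC, 38% against 7% to 26%. They also had the highest median GC content and the lowest share with GATAAG. Both hexamers were chosen after the values were seen. Their extreme place among the bins follows in part from that choice and is a description. The promoter share of 61.5% was exceeded in 2 of the other bins.

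**Figure D5:**
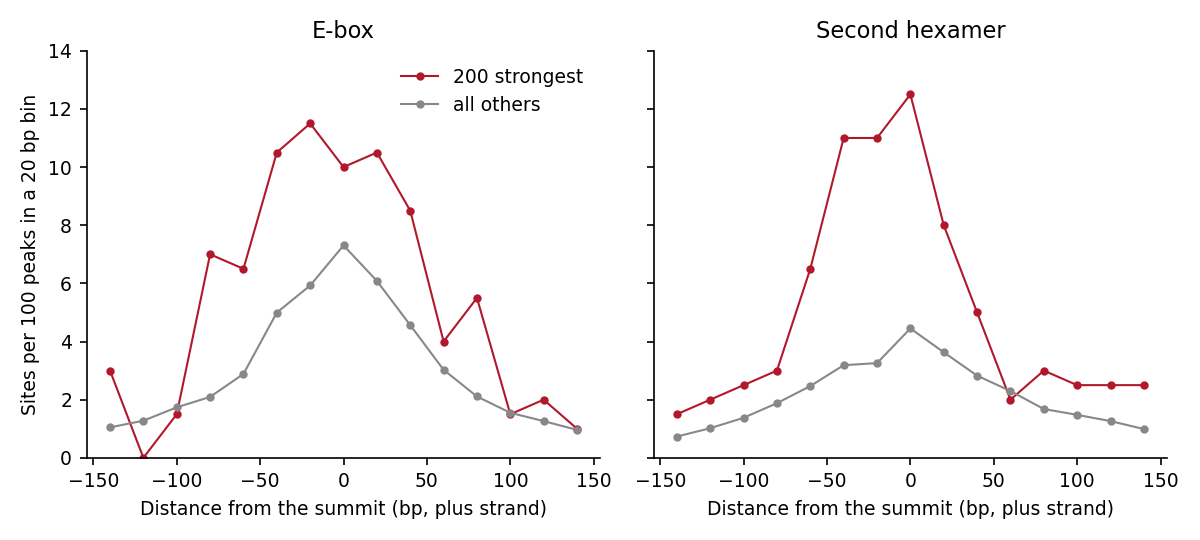
The number of sites per 100 peaks in bins of 20 bp is plotted against distance from the summit for the E-box (left) and CGTCTC (right), in red for the 200 strongest and grey for all others. In both panels the red line is highest near the summit, reaching 11.5 E-boxes and 12.5 CGTCTC sites per 100 peaks in a bin, and for the E-box it comes near the grey line at about 100 bp. For CGTCTC it falls to 2.5 at 100 bp to the left and right, against 1.38 and 1.48 in grey.

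Both kinds of site were concentrated at the summits. Within 150 bp of the 200 summits there were 166 E-boxes, at a median distance of 38.5 bp, and 151 CGTCTC sites, at a median distance of 35.5 bp. In the others the medians were 37.5 bp and 46.5 bp. CGTCTC was picked for its share within 50 bp of the 200 summits. Its closeness to them follows in part from that choice and is a description.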

How the data were processed

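Peak lists on the builds ce11 and ce10 were used from 2 samples of 1 group, replicates 1 and 2. According to the deposited text, peaks and background were called by the authors against a control alignment, for each replicate and for both pooled, and a thresholded list was made with the irreproducible discovery rate (IDR). Each deposited peak has a signal value, a score set by the authors on an unstated scale. Peak caller, aligner and threshold were not given in the sources used here, and the lists hold no read counts, so the depth is unknown.

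Regions on ce11 were ranked by signal value and placed by summit against WBcel235 with Ensembl release 115. Promoter windows covered 1000 bp before and 200 bp after the annotated 5′ ends of protein-coding transcripts. Worm transcripts are often trans-spliced, and transcription can then start upstream of an annotated 5′ end. Other summits were placed, in order, in 5′ UTRs, coding exons, 3′ UTRs, introns, noncoding exons or between genes. A region was matched to the replicate entry that overlapped it by at least 1 bp and had the nearest summit. Replicate SDs are over 2 values and may be partly technical. Shares have 95% Wilson intervals and differences 95% Newcombe intervals; no p-value was computed. Sites were read in windows of 101 bp from the RefSeq sequence of WBcel235. Python 3.11.15, numpy 2.4.6, pandas 2.3.3 and matplotlib 3.10.9 were used, and the procedures were tested on simulated data.

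The regions, the 28 gene lists and the sites were chosen with earlier results of these data known. Of the names in the lists, 15 matched no protein-coding gene. The genes named are those at the 25 strongest regions, of the lists, at the 3 strongest regions of each location and chromosome, at the extremes of distance, width and replicate ratio, at the edge of the selection and near noncoding genes; not all are printed, and others are named as chosen after seeing the values.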

Additional observations from a re-analysis of the deposited data

How the results depend on the processing

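In all, 70 alternative values were computed, and 22 of them were chosen after seeing the data. The promoter difference of 10.5 percentage points became 1.79 among peaks of 45% to 55% GC content and 3.71 among peaks not exactly 350 bp wide. Both intervals then included 0. The width restriction left out mostly weaker peaks, so width and signal value cannot be told apart in it. The coding-exon difference of -2.12 percentage points had an interval that included 0 with the 100 strongest peaks (-2.09), in that GC range (-2.66) and with that width (-0.800). The intron difference of -4.25 excluded 0 with the 400 strongest peaks (-4.11). Differences whose interval included 0 changed sign for intergenic peaks in that GC range (4.38) and for the X chromosome with the 100 strongest (2.49), the 400 strongest (1.01) and in that GC range (2.40). The median width of 371.5 bp became 395.5 bp for the 100 strongest and 336.5 bp for the 400 strongest, beyond the 11.0 bp SD of the replicates' medians. The causes were not tested. The E-box difference from all others ran from 9.51 to 23.9 percentage points over the alternatives run, with no interval that included 0. The CGTCTC difference ran from 15.3 to 27.8, a description of a hexamer picked for its difference. With regions ranked by 1 replicate alone, the E-box difference was 15.2 percentage points for either replicate and the promoter difference 8.41 to 9.95. With 50% reciprocal overlap, or on ce10, 164 regions were among the strongest of both replicates in place of 165. Counting the nearest gene alone gave 120 promoter genes in place of 155. No region overlapped another, so leaving out overlaps changed no value. No paired analysis was possible because all samples are in 1 group.

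Without read counts, the precision of each signal value rests on 2 replicates, and intervals on shares cover counting error over peaks only.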
